A study of Mus musculus with 4 samples.

Results

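The JAK-STAT and SOCS genes examined here are 10 of the 27179 genes measured by RNA-sequencing in leukemia-initiating cells (LICs) of a murine acute myeloid leukemia, and they were chosen by name: the kinases Jak1 and Jak2, the transcription factors Stat3, Stat5a and Stat5b, the feedback inhibitors Socs1, Socs2, Socs3 and Cish, and the target gene Pim1. All 10 were found in the table by NCBI gene number. The study compared LICs of wild type (WT) and CD274-/- (CD274-null) genotype, with 2 libraries each, to look for genes downstream of CD274, the ligand of PD-1. Both genotypes were on the C57BL/6 strain, and the labels give bone marrow as the tissue and 6 weeks as the age. Both carried the MLL-AF9 fusion oncogene tagged with YFP. A retrovirus had brought it into lineage-negative fetal liver cells before transplantation into lethally irradiated C57BL/6 recipients. The cells, labelled LSC, were sorted by flow cytometry, although the sequencing methods of the study describe RNA isolated from tissue. The study takes Mac-1+/c-Kit+ cells as LICs. The model rests on an oncogene driven by a viral vector, and the share of host cells in the libraries was not measured. Neither the round of transplantation behind these libraries nor the number of mice per library is given in the sources used here, and p-values measure the spread between these samples only.

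Cytokine receptors without a kinase domain of their own carry JAK kinases, which phosphorylate the receptor and then STAT proteins once a ligand has bound. Phosphorylated STAT dimers enter the nucleus and switch on target genes, among them those of the SOCS family, whose proteins bind back to JAK kinases and receptors and end the signal. In myeloid cells, IL-3 and GM-CSF act mainly through Jak2 and Stat5, and G-CSF and IL-6 through Jak1 or Jak2 and Stat3. RNA level reports the amount of transcript and not phosphorylation, so Cish, Socs3 and Pim1, which respond to active STAT proteins, are read here beside the kinases and factors themselves.

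STAT3 and STAT5 dimers bind DNA at the palindrome TTCNNNGAA. It was searched in the RefSeq promoter windows of GRCm38.p6, which run from 250 bases before to 50 bases after each annotated start. The motif reads the same on both strands, so 1 search covers both, and 2726 of the 32851 windows (8.30%) held it. Windows were found for 9 of the 10 genes, Socs2 being the gene without one. Of their 12 windows, 2 held the motif, 1 of Socs3 with 1 copy and 1 of Cish with 2 copies. The stretches below are shown because Socs3, Cish and Pim1 differed most between libraries. Capitals mark the motif, the bases run 5′ to 3′ along the gene, and only bases outside annotated exons are shown for Socs3 and Pim1. The Socs3 stretch lies upstream of the RefSeq start used and in an intron of a longer GENCODE transcript, and that of Cish spans its RefSeq start.
Socs3, minus strand, chr11:117969452-117969616: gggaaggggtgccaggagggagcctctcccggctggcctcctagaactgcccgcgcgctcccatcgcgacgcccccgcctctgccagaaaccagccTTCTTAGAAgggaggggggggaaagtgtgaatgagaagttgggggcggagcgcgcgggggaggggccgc
Cish, plus strand, chr9:107296654-107296683: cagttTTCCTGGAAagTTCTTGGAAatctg
Pim1, plus strand, chr17:29490535-29490749: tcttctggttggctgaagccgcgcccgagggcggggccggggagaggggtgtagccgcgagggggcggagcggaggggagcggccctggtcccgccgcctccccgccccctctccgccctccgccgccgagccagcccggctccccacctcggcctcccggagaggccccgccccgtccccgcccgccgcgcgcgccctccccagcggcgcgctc
The copy in Socs3 begins 154 bases before the start, and those in Cish begin at bases 1 and 12 counted from the start. No copy was found in the windows of Jak1, Jak2, Stat3, Stat5a, Stat5b, Socs1 or Pim1, which says only that these letters are not in these windows. A match is a description of the sequence and not a bound site.

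Reads that could be recovered from the FPKM values (a fragment count adjusted for the length of the gene and the size of the library) summed to 8285063 to 10968851 per library, as lower bounds. Cd274, the deleted gene, measured 2.80 and 0.945 FPKM in WT LICs against 1.43 and 2.29 FPKM in CD274-null LICs, so its value per gene, which does not show the exons its reads came from, did not separate the genotypes, and every direction below rests on the labels. Itgam (Mac-1), Kit, Hoxa9, Meis1, Mpo and Ptprc, the markers listed for the sorted cells, were present in all 4 libraries. Mpo, the myeloperoxidase of immature myeloid cells, was itself a candidate, with 444 and 403 in WT LICs against 1427 and 925 in CD274-null LICs (log2 fold change 1.44, adjusted p = 0.251 from limma), and its part in the genotype differences below was not tested. Kit was lowest in WT replicate 1, at 6.59 against 16.2 to 19.5 in the other libraries, and summed FPKM of 10 neutrophil granule and receptor genes was 43483, 8796, 18350 and 31402 in WT replicates 1 and 2 and CD274-null replicates 1 and 2. Summed over 10 erythroid markers, FPKM was 55.8 in WT replicate 2 and at most 5.41 elsewhere, with Slc4a1 and Car1 at 0 in every library. The summed FPKM ranged from 12.97 to 41.2 for 12 B cell markers, nearly all of it Cd79b, and from 68.1 to 178 for 8 plasma cell markers, nearly all of it Xbp1. For 12 T and NK cell markers it was 36.3 and 16.6 in WT LICs against 73.2 and 89.3 in CD274-null LICs. Nkg7 made up most of this sum, while Lck was at 0.188 and 0.299 against 1.13 and 0.481. Cd247 ran the other way without overlap, at 2.97 and 2.94 against 1.60 and 1.20, and Cd3e was at most 0.157. Summed over 10 macrophage markers, FPKM was 171 and 188 in WT LICs and 112 and 144 in CD274-null LICs. Vcam1, the largest part of it, had 117 and 92.3 against 53.7 and 59.8. Adgre1 (22.2 and 47.1 against 28.4 and 42.6) and Hmox1 (23.6 and 44.2 against 21.7 and 38.3) overlapped between the genotypes. Over 8 markers of plasmacytoid dendritic cells, FPKM summed to 56.3 and 63.4 against 70.5 and 98.2, with Tcf4 at 1.74 and 2.72 against 7.40 and 23.6. Jchain, a plasma cell marker, likewise differed by genotype, at 0.370 and 0.514 against 12.3 and 10.5. The part of these markers in the results was not tested.

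By level per length, Stat3, Pim1 and Jak1 had the highest means of the 10 genes and Socs2 the lowest, although Pim1 ranked only 6 of 10 in WT replicate 2. In WT replicate 2 and both CD274-null libraries Stat3 had the highest FPKM, level with Pim1 at 56.0 in CD274-null replicate 1, whereas in WT replicate 1 Pim1 stood above it. Stat5a, Stat5b and Jak2 lay close together, with means over the 4 libraries of 20.9, 20.4 and 17.1. Jak2 was below both STAT5 genes in every library, and Stat5a was above Stat5b in WT replicate 2 and CD274-null replicate 1 and below it in the other libraries. Socs1 and Socs3 had means of 9.49 and 9.43, and Cish of 2.49, with ranges that overlapped one another. Socs2, an inhibitor of growth hormone and Stat5 signaling, was the only one of the 10 below the mean FPKM of 0.5 required for testing: its FPKM was 0.0320 and 0.146 in WT LICs against 0.126 and 0.0372 in CD274-null LICs, from 1, 4, 3 and 1 reads. At this depth no difference in Socs2 was detectable.

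**Figure D1:**
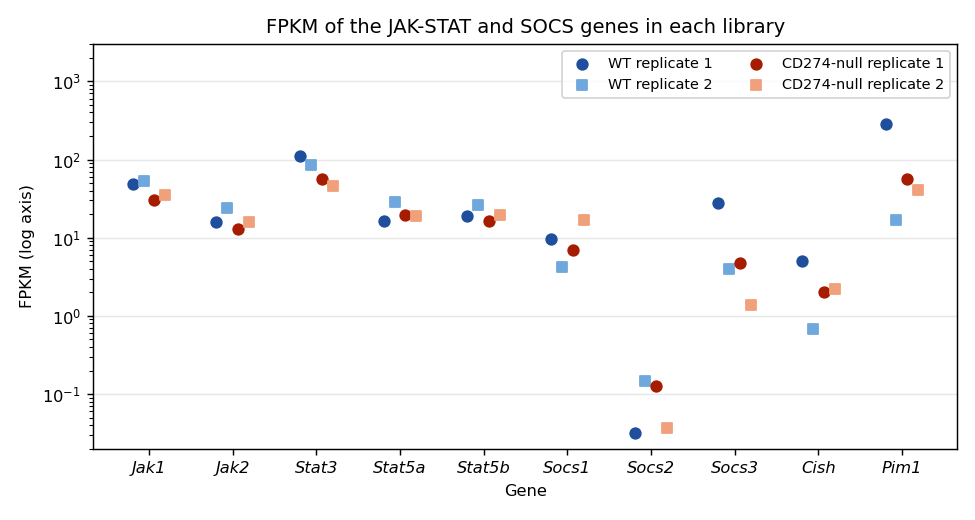
FPKM on a log axis for each of the 10 genes, with 1 point per library (blue for WT, red for CD274-null; circles for replicate 1, squares for replicate 2). Stat3 and Jak1 are the genes whose red points both lie below both blue points, and Pim1, Socs3 and Cish show their highest value in WT replicate 1.

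Comparing CD274-null with WT LICs, Stat3 was lower, at 51.4% of the WT mean, and both CD274-null values of Jak1 were also below those of WT, whereas Jak2, the STAT5 genes, Socs1, Socs3, Cish and Pim1 overlapped between the genotypes. Genes were called candidates where limma gave an unadjusted p under 0.01 together with a change of over 1.5-fold. Of the 9 tested genes, 1 was a candidate, Stat3, and it was lower in the CD274-null libraries. Over all 13230 tested genes 3.63% were candidates in either direction and 1.24% were candidates with a lower level, so that 1 of 9 is a count too small to set apart from this background. No gene of the 9 had an adjusted p under 0.05 from limma, a threshold that 0.0756% of all genes passed. Without adjustment, 2 of the 9 had a p under 0.05, Stat3 and Jak1, where 13.7% of all tested genes did, and voom on the recovered reads likewise gave 0 after adjustment and 2 without it. The groups did not overlap for 2 of the 9, both lower in CD274-null, where 21.8% of all tested genes lay wholly below WT and 25.6% wholly above. The median log2 fold change was -0.44 over the 9 genes and 0.01 over all tested genes. Of all candidates, 316 were higher and 164 lower, against 253 and 210 with quantile normalization and 246 and 196 with the medians made equal.

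**Figure D2:**
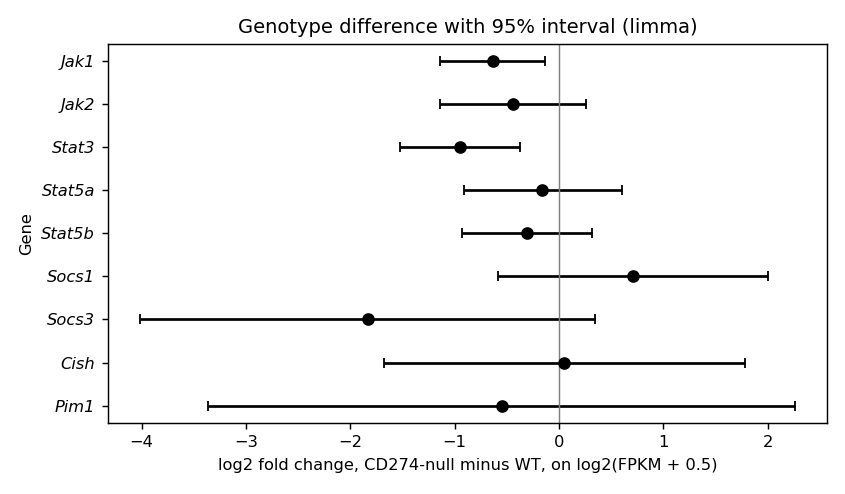
Log2 fold change (CD274-null minus WT, on log2(FPKM + 0.5)) for the 9 tested genes, with points for the limma estimate from 2 against 2 libraries and bars for its 95% interval. The intervals of Jak1 and Stat3 lie below 0, and those of Socs3, Cish and Pim1 are the widest.

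Among the kinases, Jak1, which serves the receptors of the IL-6, interferon and IL-2 families (chromosome 4, 101151974 to 101265282), measured 48.1 and 53.5 FPKM in WT LICs against 30.3 and 34.9 FPKM in CD274-null LICs. Both CD274-null values were thus below both WT values. The means were 50.8 ± 3.83 (SD, n = 2) and 32.6 ± 3.25 (SD, n = 2), from 1422 to 2948 reads per library. The log2 fold change was -0.63 (standard error 0.21, 95% interval -1.14 to -0.13, adjusted p = 0.313 from limma), which did not reach the candidate threshold. Jak2, the kinase of the IL-3, GM-CSF, erythropoietin and thrombopoietin receptors, lies on chromosome 19 from 29251803 to 29313095, and its end is 49.0 kb from the start of Cd274. Its FPKM was 15.7 and 24.1 in WT LICs against 12.9 and 15.7 in CD274-null LICs. WT replicate 1 and CD274-null replicate 2 had almost the same value, so the groups overlapped by a small margin. The log2 fold change was -0.44 (standard error 0.29, 95% interval -1.14 to 0.26, adjusted p = 0.530 from limma), and it was -0.14 without WT replicate 2 and -0.74 without WT replicate 1. FPKM of Jak1 exceeded that of Jak2 in every library, by 2.22 to 3.07 times.

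Stat3, the factor activated by IL-6, G-CSF and related cytokines (chromosome 11, 100886806 to 100939594), measured 112 and 85.2 FPKM in WT LICs against 56.0 and 45.4 FPKM in CD274-null LICs. Both CD274-null values were lower than both WT values, and the CD274-null mean was 51.4% of the WT mean. The means were 98.6 ± 18.9 (SD, n = 2) and 50.7 ± 7.47 (SD, n = 2), from 1015 to 2907 reads per library. Its log2 fold change was -0.95 (standard error 0.24, 95% interval -1.52 to -0.37, unadjusted p = 0.00677 and adjusted p = 0.272 from limma). The call was lost, though not the direction, without WT replicate 1 (unadjusted p = 0.0257 from limma), without CD274-null replicate 1 (0.0293) or without CD274-null replicate 2 (0.0672), and also without the trend of the variance (0.0178) or without moderation (0.0615).

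The STAT5 genes, which transmit IL-3, GM-CSF and thrombopoietin signals, did not separate by genotype. They are neighbors of Stat3 on chromosome 11: Stat5b (100780731 to 100859004) ends 347 bp before Stat5a (100859351 to 100885169), which ends 1.64 kb before Stat3. Stat5a measured 16.2 and 28.7 FPKM in WT LICs against 19.7 and 18.9 FPKM in CD274-null LICs, so that both CD274-null values lay between those of WT. Its log2 fold change was -0.16 (standard error 0.31, 95% interval -0.91 to 0.60, adjusted p = 0.855 from limma), and it was 0.25 without WT replicate 2 and -0.56 without WT replicate 1. Stat5b had 19.1 and 26.4 against 16.5 and 19.7, again overlapping, and its log2 fold change was -0.31 (standard error 0.26, 95% interval -0.93 to 0.32, adjusted p = 0.619 from limma), with -0.08 without WT replicate 2 and -0.54 without WT replicate 1. Both were highest in WT replicate 2. The ratio of Stat5a to Stat5b FPKM stayed between 0.847 and 1.19. These genes are close copies: of the words of 50 bases in their GENCODE transcripts, the length of a read, 8.21% of Stat5a and 11.0% of Stat5b occur in the other gene, so part of their reads could have been split or dropped. Their summed FPKM was 35.3, 55.1, 36.2 and 38.6 in WT replicates 1 and 2 and CD274-null replicates 1 and 2. As these are bulk samples, fewer cells with a transcript and less transcript per cell cannot be told apart.

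Among the inhibitors, Socs3, which blocks signaling from gp130 and the G-CSF receptor (chromosome 11, 117966079 to 117970336), measured 27.6 and 3.99 FPKM in WT LICs against 4.76 and 1.40 FPKM in CD274-null LICs, from 872, 111, 115 and 38 reads. WT replicate 1 stood far above the rest, and WT replicate 2 was below CD274-null replicate 1. The log2 fold change was -1.83, but with a standard error of 0.90 and a 95% interval from -4.01 to 0.35 (adjusted p = 0.421 from limma). Without WT replicate 2 it was -3.15 and a candidate (unadjusted p = 0.00445 from limma), and without WT replicate 1 it was -0.51.

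Socs1, the inhibitor of interferon signaling (chromosome 16, 10783808 to 10785536), was ordered differently, with 9.71 and 4.27 in WT LICs against 6.95 and 17.0 in CD274-null LICs. Its highest value was in CD274-null replicate 2 and its lowest in WT replicate 2, with the genotypes overlapping (log2 fold change 0.71, standard error 0.53, 95% interval -0.58 to 2.0, adjusted p = 0.575 from limma). It was 0.10 without CD274-null replicate 2, 0.16 without WT replicate 2, 1.26 without WT replicate 1 and 1.33 without CD274-null replicate 1. The ratio of Socs3 to Socs1 FPKM was 2.84 and 0.935 in WT LICs against 0.685 and 0.0820 in CD274-null LICs. Each gene alone overlapped between the genotypes, and the ratio was not tested. Cish, an inhibitor induced by Stat5 (chromosome 9, 107296659 to 107302784), measured 5.0 and 0.682 FPKM in WT LICs against 2.04 and 2.23 FPKM in CD274-null LICs, from 125, 15, 39 and 48 reads. Both CD274-null values lay between those of WT. Its log2 fold change was 0.05 (standard error 0.71, 95% interval -1.68 to 1.78, adjusted p = 0.983 from limma), a value near 0 that turned slightly negative under quantile normalization and was 1.16 without WT replicate 1 and -1.06 without WT replicate 2.

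Pim1, which encodes a serine/threonine kinase that promotes survival downstream of Stat5 and Stat3 (chromosome 17, 29490785 to 29496111), had the largest range of FPKM of the 10 genes. Its FPKM was 283 and 17.1 in WT LICs against 56.0 and 40.6 in CD274-null LICs, from 5756, 306, 871 and 711 reads. The WT libraries thus bracketed the CD274-null libraries on both sides. The log2 fold change was -0.55 (standard error 1.16, 95% interval -3.36 to 2.26, adjusted p = 0.866 from limma). Its direction depended on which WT library was used: without WT replicate 1 it was 1.45 (unadjusted p = 0.00345 from limma), and without WT replicate 2 it was -2.56 (unadjusted p = 2.38e-04 from limma), the single library being assumed to vary like the other group. TruSeq v2 libraries do not mark the strand. Of the words of 50 bases in Pim1 transcripts, 8.78% also occur on the opposite strand in Gm26885, and in Cish 9.35% occur in another gene, mostly on the opposite strand in Gm17041 and Gm17040. Reads from such partners could not be told apart.

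For all tested genes of the set but Jak1 and Stat3, the WT libraries differed from each other on the log2 scale by more than the genotype means did. Pim1 FPKM was 16.6 times higher in WT replicate 1 than in WT replicate 2 (95% interval 14.8 to 18.6 from exact binomial counting of the reads), Cish 7.33 times (4.28 to 13.5), Socs3 6.91 times (5.67 to 8.5) and Socs1 2.28 times (1.65 to 3.19). These intervals cover counting error only and compare libraries, not conditions. In contrast, Jak1, Jak2, Stat5a and Stat5b were lower in WT replicate 1, at 0.899, 0.650, 0.564 and 0.725 times the value of replicate 2, and Stat3 was at 1.31 times.

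On the log2(FPKM + 0.5) scale, 4 of the 9 tested genes were over 2-fold higher in WT replicate 1 than in WT replicate 2, where 4.86% of all tested genes were, and 0 of 9 were over 2-fold lower, where 6.57% were. From the highest difference downward among 13230 genes, Pim1 ranked 21, Socs3 82, Cish 130 and Socs1 538. Pim1, Socs3 and Cish were also over 2-fold above each of the other 3 libraries, as were 1.47% of all tested genes. This cutoff was chosen after the values had been seen and no test was made. Between the CD274-null libraries the order was different, with Socs3 at 3.41 times (2.34 to 5.06), Pim1 at 1.38 times (1.25 to 1.53), Cish at 0.915 times (0.584 to 1.43) and Socs1 at 0.408 times (0.309 to 0.534) in replicate 1 relative to replicate 2. Neutrophil genes also differed between the WT libraries: all 10 listed were higher in WT replicate 1 than in WT replicate 2 and 8 were at their highest there, among them Cxcr2 (19.7 against 1.03, and 2.86 and 2.11 in CD274-null) and Ngp (5231 against 778, and 1869 and 2597). Between the CD274-null libraries the summed neutrophil genes were higher in replicate 2, as was Socs1, whereas Socs3, Pim1 and Cxcr2 were lower there. Cish was nearly level, with an interval that spanned 1. The part of these genes, of Kit or of the erythroid markers of WT replicate 2 in the pattern was not tested.

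**Figure D3:**
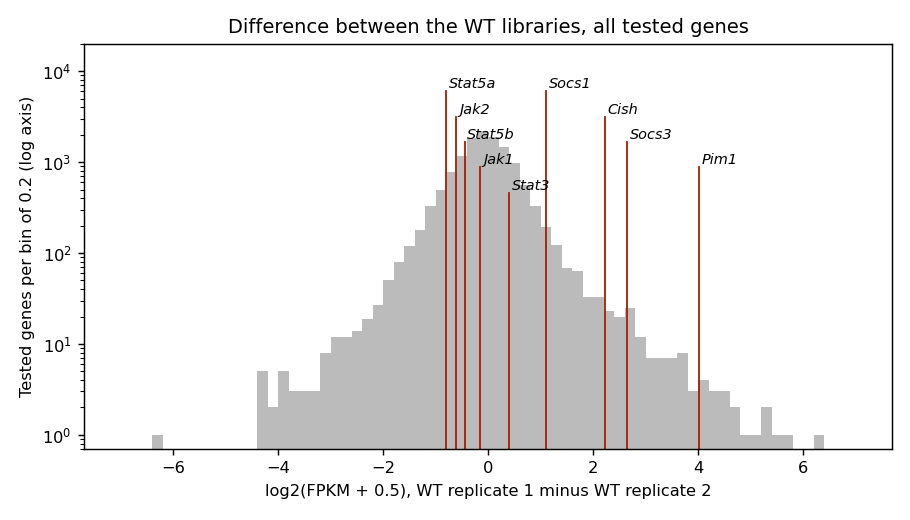
Histogram of the difference between the WT libraries in log2(FPKM + 0.5) for all 13230 tested genes (bins of 0.2, log axis for the number of genes), with a red line for each of the 9 tested JAK-STAT and SOCS genes. Pim1, Socs3 and Cish lie in the right tail at 4.01, 2.65 and 2.22, and the kinases and STAT genes lie in the body.

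Other genes known as targets of Stat3 or Stat5 were then examined from a list of 16, all of which were tested. Of these, 4 were over 2-fold higher in WT replicate 1 than in WT replicate 2 and 0 were over 2-fold lower, as against 4.86% and 6.57% of all tested genes. The 4 were Pim2 and Pim3, relatives of Pim1, Bcl3, an atypical IκB protein, and Hif1a, the hypoxia factor, named here after their values were seen. Bcl3 measured 48.3 and 8.46 FPKM in WT LICs against 10.4 and 11.1 FPKM in CD274-null LICs. Pim3 measured 36.4 and 11.3 FPKM in WT LICs against 21.7 and 29.8 FPKM in CD274-null LICs, and Hif1a 43.6 and 17.6 against 19.9 and 16.5. Bcl3 and Hif1a were over 2-fold above every other library in WT replicate 1, where 1.47% of all tested genes were. Bcl2l1, which encodes the survival factor BCL-XL and was also picked after its values were seen, had 19.0, 18.2, 15.0 and 14.7 in WT replicates 1 and 2 and CD274-null replicates 1 and 2. Junb, an AP-1 subunit and the most abundant of the list, measured 427 and 232 FPKM in WT LICs against 148 and 343 FPKM in CD274-null LICs, without separation by genotype. Irf1, an interferon target chosen after its values were seen, was wholly higher in CD274-null, at 46.5 in CD274-null replicate 2 against 21.98 in CD274-null replicate 1 and 14.7 and 12.9 in WT (log2 fold change 1.19, adjusted p = 0.299 from limma).

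**Figure D4:**
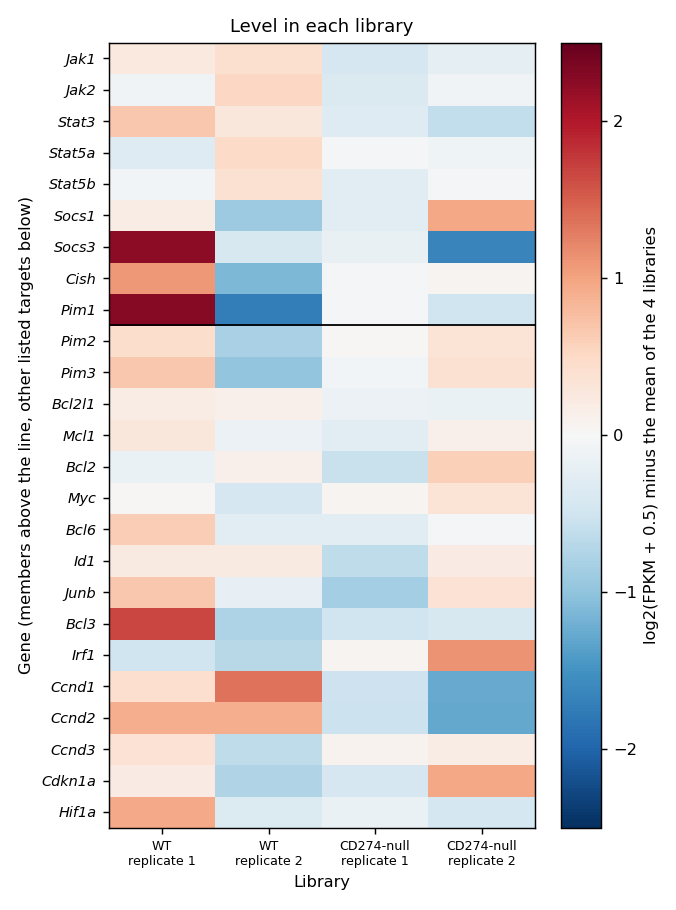
Level of each gene in each library, as log2(FPKM + 0.5) minus the mean of the 4 libraries (red above, blue below), with the tested JAK-STAT and SOCS genes above the line and 16 other listed targets below it. WT replicate 1 is red for Socs3, Pim1, Cish and Bcl3, and both WT libraries are red for Stat3, Jak1, Ccnd1 and Ccnd2.

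By genotype, 2 of the 16 targets were candidates, Ccnd1 and Ccnd2, which encode D-type cyclins, and both were lower in CD274-null, as against 3.63% of all tested genes in either direction and 1.24% lower. Ccnd2 measured 4.78 and 4.82 FPKM in WT LICs against 1.45 and 0.661 FPKM in CD274-null LICs (log2 fold change -1.82, adjusted p = 0.251 from limma). Ccnd1 had 3.85 and 7.79 against 1.76 and 0.847 (log2 fold change -1.78, adjusted p = 0.274 from limma). Without CD274-null replicate 2 neither was a candidate (unadjusted p = 0.0278 for Ccnd2 and 0.0869 for Ccnd1 from limma), nor was either without moderation, or without WT replicate 2 (0.0145 and 0.0441). Ccnd2 also lost the call without WT replicate 1 (log2 fold change -1.82), and Ccnd1 without CD274-null replicate 1 (log2 fold change -2.16). With every gene tested (unadjusted p = 0.0205 from limma) and with a replicate block and GC correction together (0.0128), Ccnd1 lost it too. Ccnd3, the other D-type cyclin and far more abundant, overlapped between the genotypes, at 178 and 89.5 against 148 and 158 (log2 fold change 0.28, adjusted p = 0.751 from limma), and is named after its values were seen. The D-type cyclins are known as targets of many pathways besides STAT5. The median log2 fold change over the 16 was -0.23.

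Upstream of the kinases, 25 ligands and 31 receptor chains had been listed. Of the ligands 7 were tested and 9 were listed at 0 in all 4 libraries, and none was a candidate, as against 3.63% of all tested genes. No ligand had an unadjusted p under 0.05 from limma, where 13.7% of all tested genes did, and Il15 had one with voom. Osm, oncostatin M, itself induced by Stat5, was the most abundant, at 45.4 and 6.03 in WT LICs against 16.0 and 30.5 in CD274-null LICs, and was 7.53 times higher in WT replicate 1 than in WT replicate 2. Il15, a ligand of T and NK cell growth, measured 1.01 and 11.2 FPKM in WT LICs against 13.02 and 19.2 FPKM in CD274-null LICs (log2 fold change 1.96, adjusted p = 0.396 from limma), and Tslp had 0.195 and 0.0737 against 1.70 and 0.377, from at most 20 reads. Of the receptors 23 were tested and 0 were candidates, where 3.63% of all tested genes were, with limma giving 0 and voom giving 1 at an unadjusted p under 0.05, Il10ra, where 13.7% of all tested genes passed with limma.

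Csf2ra, the α chain of the GM-CSF receptor, was the most abundant receptor, at 233 and 240 in WT LICs against 307 and 377 in CD274-null LICs (log2 fold change 0.52, adjusted p = 0.385 from limma). Csf2rb, the β chain shared by IL-3, IL-5 and GM-CSF that binds Jak2, had 154 and 69.0 against 59.7 and 50.2 (log2 fold change -0.91, adjusted p = 0.373 from limma). Its groups did not overlap, but WT replicate 1 was 2.24 times WT replicate 2. Csf2rb and Il4ra were the receptor genes over 2-fold above every other library in WT replicate 1, as were 1.47% of all tested genes. Il4ra, named after its values were seen, had 59.8 and 15.2 in WT LICs against 20.8 and 16.0 in CD274-null LICs. Of the 68 tested pathway genes beyond the 10, 10 were over 2-fold higher in WT replicate 1 than in WT replicate 2. Another 5 were over 2-fold lower, as against 4.86% higher and 6.57% lower among all tested genes. Il10ra had 4.08 and 5.62 against 7.32 and 9.11 (log2 fold change 0.71, adjusted p = 0.377 from limma).

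The other kinases and factors of the family gave 0 candidates among 7 tested genes, although 3 had a p under 0.05 before adjustment with limma as with voom, Tyk2, Stat2 and Irf9, where 13.7% of all tested genes did with limma. These serve type I interferon signaling, and all 3 were higher in CD274-null. Tyk2 measured 15.6 and 22.3 FPKM in WT LICs against 30.7 and 34.1 FPKM in CD274-null LICs (log2 fold change 0.78 with a standard error of 0.25; limma, adjusted p = 0.312). Stat2 had 8.28 and 17.5 against 21.4 and 25.3 (log2 fold change 0.92 with a standard error of 0.37; limma, adjusted p = 0.357), and Irf9 10.6 and 10.7 against 14.4 and 20.2 (log2 fold change 0.66, adjusted p = 0.355 from limma). Stat6, which answers to IL-4, was the most abundant of the list, at 45.8 and 54.7 in WT LICs against 55.8 and 59.4 in CD274-null LICs. Jak3, the kinase of the common γ chain, had 58.8 and 21.0 against 34.8 and 34.2, again with its extremes in the WT libraries.

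Among 15 other inhibitors, all tested, 1 was a candidate, which was lower, as against 1.24% of all tested genes, so that the count alone does not set the list apart. Cbl, a ubiquitin ligase that removes activated receptors and kinases, measured 31.2 and 32.8 FPKM in WT LICs against 12.4 and 9.60 FPKM in CD274-null LICs. The CD274-null mean was 34.5% of the WT mean, and the groups lay far apart (log2 fold change -1.51, standard error 0.24, 95% interval -2.08 to -0.93, unadjusted p = 6.24e-04 and adjusted p = 0.165 from limma). The call was lost without CD274-null replicate 2 (log2 fold change -1.33, unadjusted p = 0.0118 from limma) and without moderation (0.0143). Socs4 had 16.6 and 12.9 against 8.82 and 5.08, without overlap (log2 fold change -1.07 with a standard error of 0.33; limma, adjusted p = 0.299). Ptpn6, which encodes the phosphatase SHP-1, was the most abundant, with 134 and 273 in WT LICs against 171 and 202 in CD274-null LICs, which overlapped. Of the 94 other listed pathway genes, 68 were tested and 3 were candidates, all lower in CD274-null, where 3.63% of all tested genes were candidates and 1.24% were lower ones, and 0 had an adjusted p under 0.05 from limma or voom; 9 had an unadjusted p under 0.05 from limma, a share near the 13.7% of all tested genes.

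**Figure D5:**
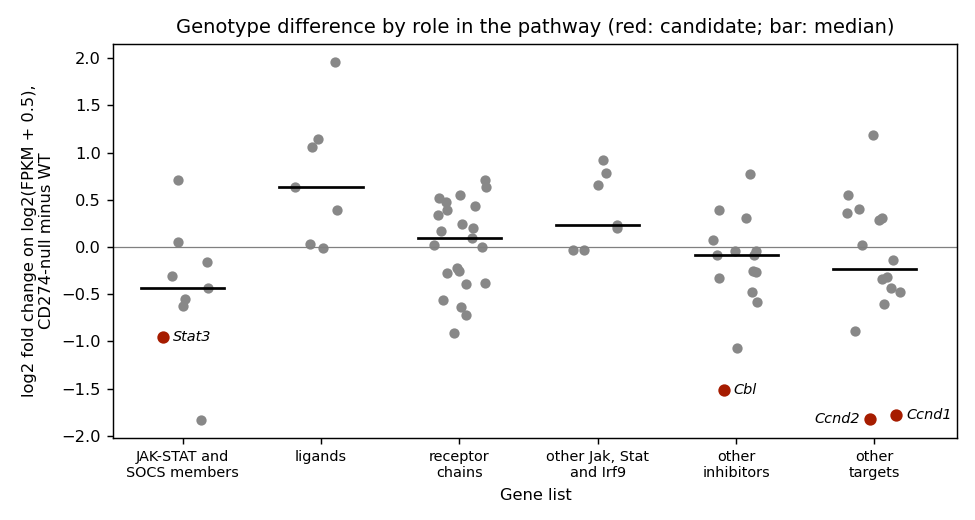
Log2 fold change (CD274-null minus WT, on log2(FPKM + 0.5)) of each tested gene by its role in the pathway, with candidates in red and a bar at the median of each list. Stat3, Cbl, Ccnd1 and Ccnd2 are the candidates, all below 0, and the median is 0.64 for the 7 ligands and between -0.44 and 0.23 for the other lists.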

How the data were processed

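RNA from LICs was sequenced in 4 libraries, and the study's sequencing methods name tissue as the source of the RNA. The authors deposited FPKM values, without log transformation, made from TruSeq RNA v2 libraries read on a HiSeq2500. The submitters' processing notes name CASAVA 1.8.2, TopHat2 2.0.12 and the build GRCm38; the program, gene lengths and strand setting behind FPKM are not given in the sources used here. Columns were matched to samples by title, with 0 columns left over. Symbols came from RefSeq GRCm38.p6 (25275 of 27179 genes).

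Genes whose FPKM averaged 0.5 or more were compared on log2(FPKM + 0.5), which understates the change of low genes, by limma 3.58.1 in R 4.3.3 (eBayes with trend, 2-sided, no covariates) with Benjamini-Hochberg adjustment over 13230 genes. The study's methods name Student's test for group differences in general, and the model without moderation is the nearest to it. Whole reads were recovered from the ratios of FPKM between libraries for 17082 of 17083 genes above 0 in at least 2 libraries (tolerance 0.002 reads), apart from any factor that all 4 libraries share, and set the depth behind each value. Both steps were tested on simulated data. Sequences and words were handled in Python 3.11.15.

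The 10 genes, the pathway and marker lists and the tests were chosen with earlier results of these data known. Named are the 10 genes, Cd274 and, from each pathway list, the most abundant gene, the candidates and the 2 largest changes without overlap; others are marked in the text as named after their values were seen. Bcl2l1, Jak3 and Irf9, and the marker genes given by name, Kit, Mpo, Jchain, Cxcr2 and Ngp among them, are outside that rule and were picked after their values were seen. Hbb-bt and Ahsp were not matched by symbol. Some items are not reported here.

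Alternatives were pseudocounts of 1 and 0.1, testing every gene, testing from a mean FPKM of 5 upward, quantile normalization, equal medians, no trend, no moderation, voom on the recovered reads, a replicate block, a loess correction for GC content (span 0.3), both together, and leaving out each library.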

Additional observations from a re-analysis of the deposited data

How the results depend on the processing

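Jak1, Jak2, Stat5b, Socs1 and Stat3 kept their direction under all 16 alternatives, and Socs3 did too, although leaving out single libraries moved Jak2, Stat5b, Socs1 and Socs3 by over 1.5 times; Socs3 became a candidate with the replicate block (unadjusted p = 0.00262 from limma) and with the block and GC correction. Cish, near 0, was -0.019 with a pseudocount of 1, -0.041 with quantile normalization, and -0.040 with the GC correction, alone or with the replicate block. Leaving out each library gave log2 fold changes of -1.06 to 1.16 for Cish, -2.56 to 1.45 for Pim1 and -0.56 to 0.25 for Stat5a. It gave 0 to 3 candidates among the 10 genes, 1 to 8 among the other pathway genes and 147 to 634 among all genes, the highest counts without WT replicate 2 and the lowest without CD274-null replicate 2, each single library being assumed to vary like the other group. Without moderation there were 0, 0 and 170 candidates in these sets, against 1, 3 and 480. Without the trend there were 0 among the 10 genes, and at a mean FPKM of at least 5 there was 1 among the other pathway genes, as Ccnd1 and Ccnd2 were not tested. The replicate block gave 2, 6 and 526, and with the GC correction 2, 2 and 297. The replicate numbers only name the libraries: the deviations of same-numbered libraries had a correlation of -0.015 across genes, which are not independent. The cause of these shifts was not tested. Log2 fold changes followed GC content across 11435 genes (Spearman's rho 0.271). With 2 libraries per group, most of a gene's spread is borrowed from other genes, and the 15 to 125 reads of Cish and the 1 to 4 reads of Socs2 limit both.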
